A study of Mus musculus with 2 samples.

Results

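Cytosolic ribosomal protein genes encode the proteins that, with ribosomal RNA, build the large and small subunits of the ribosome outside mitochondria. They were chosen here by symbol alone: protein-coding genes of the GENCODE M21 annotation named Rpl or Rps with a number, Rplp0, Rplp1, Rplp2 and Rpsa. The S6 kinases (Rps6k) and genes named as pseudogenes (-ps) were left out, the latter including 6 that M21 types as protein-coding. This gave 86 genes of the 43346 gene identifiers measured, 52 of the large subunit and 34 with Rps symbols. One of them, Rps19bp1, fits the rule by its letters but encodes a protein that binds a ribosomal protein, so 85 genes encode ribosomal proteins, 33 of these in the small subunit.

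The measurements came from hearts of 8-week-old adult C57BL/6J mice, pooled from littermates of mixed sex, with no treatment or genetic change named in the labels. Poly(A)-selected, strand-specific RNA over 200 nt was sequenced as paired 76-nt reads in 2 libraries of 1 group, biological replicates 1 and 2, which have separate tissue records but 1 shared donor record. The design holds no contrast between conditions, so levels were described within each library, and a difference between the libraries compares those 2 libraries only. Since the tissue was whole heart, fewer cells of a type and less RNA per cell cannot be told apart.

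Most ribosomal proteins are present in equal number per ribosome, the stalk proteins Rplp1 and Rplp2 being an exception, and most mammalian ribosomal protein genes have a single working copy beside many processed pseudogenes, which are intronless copies of the mRNA. Their mRNAs typically begin with a C followed by a run of pyrimidines, the 5′ terminal oligopyrimidine (TOP) tract, through which growth signals control their translation. A few genes have working paralogs with restricted use. Rpl3l, a paralog of Rpl3 known from heart and skeletal muscle, is the example most tied to this tissue.

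The sequences of Rpl3 and Rpl3l show how far reads can tell the paralogs apart. The stretch below runs from coding base 4 to base 93, counted from 1 at the A of the start codon, and comes from the GENCODE M21 transcripts on GRCm38. Capitals in the Rpl3 line mark the 21 bases that differ from Rpl3l.
Rpl3l, chr17:24728317-24728406, plus strand: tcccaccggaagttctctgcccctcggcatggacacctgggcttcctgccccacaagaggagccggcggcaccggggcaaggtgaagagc
Rpl3, chr15:80082493-80082582, minus strand: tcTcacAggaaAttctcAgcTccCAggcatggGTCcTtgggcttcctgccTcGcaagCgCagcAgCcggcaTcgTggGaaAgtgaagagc
Over the whole coding region 896 of 1206 aligned bases (74.3%) were identical. The longest identical run was 22 bases, well short of a read, and no window of 76 bases was shared.

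The second set is shown because here single reads within the coding region cannot separate Rps27 from Rps27rt. Coding bases 116 to 205 of Rps27 and of Rps27rt, its retrotransposed copy annotated as protein-coding, are the same letters. Capitals in the Rps27l line mark the 24 bases that differ in Rps27l, a paralog known as a target of p53.
Rps27, chr3:90212955-90213044, minus strand: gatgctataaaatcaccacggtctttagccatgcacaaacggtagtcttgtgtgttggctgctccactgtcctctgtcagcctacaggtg
Rps27rt, chr9:114982503-114982592, minus strand: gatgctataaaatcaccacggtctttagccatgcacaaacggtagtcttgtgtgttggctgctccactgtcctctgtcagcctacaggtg
Rps27l, chr9:66947587-66947676, plus strand: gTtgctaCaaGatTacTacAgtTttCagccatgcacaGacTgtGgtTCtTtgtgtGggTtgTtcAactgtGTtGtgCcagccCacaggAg
All 252 coding bases of Rps27 and Rps27rt were identical, and 98.5% of the 76-base windows of the Rps27 transcript also occur in Rps27rt. Rps27l differed from Rps27 at 60 of 252 bases and shared no window in the coding region.

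As a group the ribosomal protein genes took 1.34% of all TPM in replicate 1 and 2.01% in replicate 2, a mean of 1.67% ± 0.471 (SD, n = 2). TPM, the authors' abundance unit, divides by effective length and has an equal total in both libraries, so levels of different genes can be set side by side. In estimated counts, which favour long genes, the group held 405901 counts in replicate 1 and 634435 in replicate 2, which is 0.718% and 1.03% of counts on genes. Their share of counts was smaller than their share of TPM in both libraries, and their median effective length was 521 nt against 2187 nt for all genes tested between the libraries.

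Nearly all members were measured well above zero. A TPM of at least 1 in both libraries was reached by 84 of 86 members (97.7%), against 49.7% of protein-coding genes. At TPM of at least 10 in both there were 80 members, and at 100 there were 44. The exceptions at TPM 1 were Rpl10l and Rpl39l, paralogs known mainly from testis.

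The median member had a TPM of 114 in replicate 1 and 131 in replicate 2. The middle of the distribution, between the 25th and 75th percentiles, ran from 59.0 to 193 in replicate 1 and from 77.7 to 311 in replicate 2. On estimates for the genes alone, these quartiles thus differed by over 3-fold. With the sequence copies described below added, the ratio was 2.63 in replicate 1 and 3.26 in replicate 2. Across the 86 members the levels in both libraries ranked alike (Spearman rho 0.951, a description over genes that share the same 2 libraries).

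On estimates for the genes alone, small-subunit genes sat above large-subunit genes in the middle of their distributions. Their median TPM was 142 in replicate 1 and 185 in replicate 2, against 86.0 and 103 for the large subunit. The summed levels did not show that order: the large subunit took 0.679% and 1.08% of TPM, and the small subunit 0.660% and 0.927%. The stalk genes Rplp0, Rplp1 and Rplp2 contributed 0.147% and 0.318% of TPM to the large subunit. These values leave out reads assigned to pseudogene copies, which are taken up below. The members with more counts on copies than on the gene were Rpl5, Rpl27, Rpl14 and Rpl23a of the large subunit and Rps13 of the small. The part of copies in the difference between the subunit medians was not tested.

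**Figure D1:**
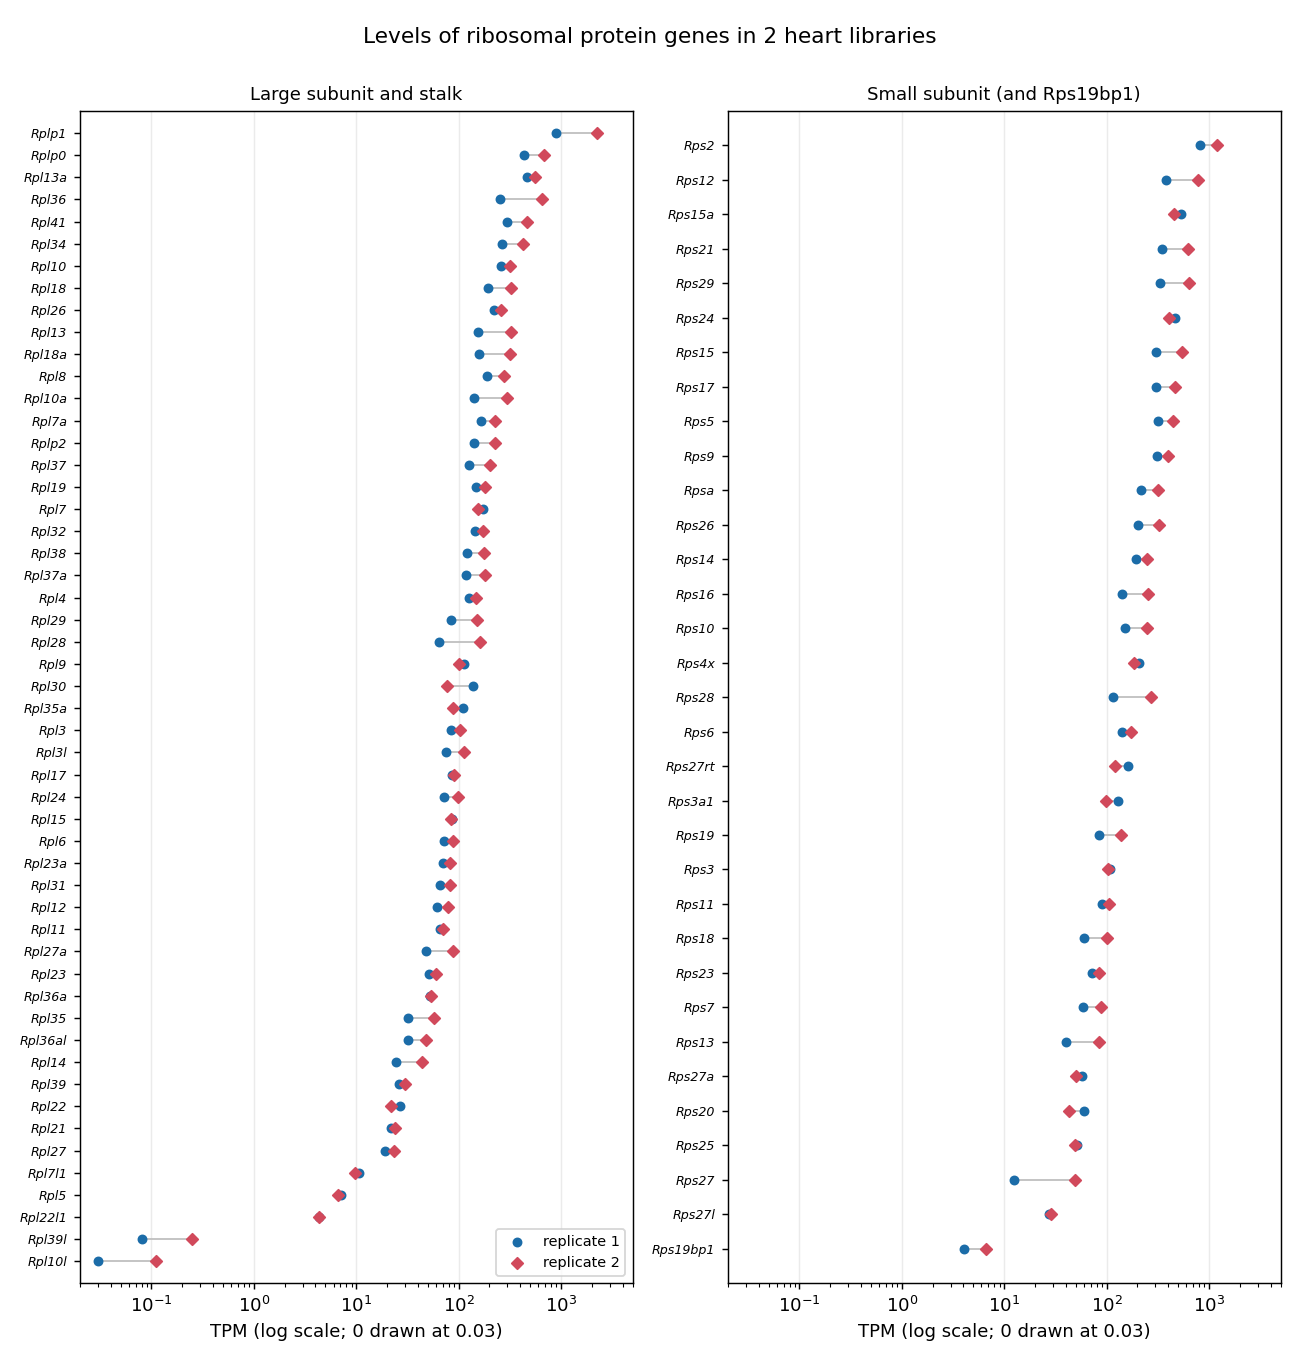
TPM (log axis) of 85 of the 86 genes, ordered by mean, with replicate 1 as circles and replicate 2 as diamonds joined by a line. In both libraries 79 of these lie at 10 TPM or more, Rplp1 reaches 2270 in replicate 2, and Rpl39l and Rpl10l lie below 1 in both libraries.

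The P-stalk, through which translation factors bind and act on the large subunit, consists of Rplp0 and copies of Rplp1 and Rplp2. Rplp1 (ENSMUSG00000007892, chr9:61913284-61914542, minus strand, GRCm38) was the highest member, with TPM 892 in replicate 1 and 2270 in replicate 2. Rplp0 (chr5:115559467-115563727) stood at 433 and 680, and Rplp2 (chr7:141447370-141451585) at 141 and 227. The order Rplp1, Rplp0, Rplp2 was the same in both libraries, and each of the 3 had its larger TPM in replicate 2.

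Among small-subunit genes Rps2, whose protein lies near the mRNA entry site, led with TPM 819 and 1206. Rps12 followed by mean TPM with 384 and 781, though in replicate 1 other small-subunit genes lay between Rps2 and Rps12. Rpl13a, whose protein is also known for an interferon-driven silencing role, completed the 5 highest by mean TPM with 470 and 562. Rpsa, which encodes a ribosomal protein long known also as a laminin receptor, had TPM 215 and 319. The 5 highest within each library accounted for 23.7% of the group's TPM in replicate 1 and 27.9% in replicate 2. These were not the same genes in both libraries, nor the 5 highest by mean.

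At the low end stood Rpl10l with 0 counts in replicate 1 and 6 in replicate 2, and Rpl39l with 3 and 10 counts. A count of 0 allows up to 3 counts, 0.0555 CPM (counts relative to library size) in replicate 1, so Rpl10l was at or near the detection limit in both libraries. Rpl22l1 had TPM 4.37 and 4.35, and Rps19bp1 had 4.05 and 6.66. Rpl5, an essential 5S-binding protein of the large subunit that also binds Mdm2, was also among the 5 lowest with 7.13 and 6.57. It is taken up again below with its copies.

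Rpl3 and Rpl3l had nearly the same level in heart, ranking 52 and 53 of 86 by mean TPM. The Rpl3 protein helps shape the peptidyl transferase centre, and Rpl3l can take its place in striated muscle ribosomes. Rpl3 (ENSMUSG00000060036, chr15:80077791-80091868, minus strand) had TPM 84.7 in replicate 1 and 104 in replicate 2. Rpl3l (ENSMUSG00000002500, chr17:24727820-24736143, plus strand) had TPM 75.3 and 113. Rpl3 was thus the higher of the pair in replicate 1 and Rpl3l in replicate 2, and their order did not hold across the libraries. The mean log2 ratio of Rpl3 over Rpl3l, with 0.1 TPM added to each, was 0.03 ± 0.21 (SD, n = 2), which is smaller than its spread.

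By share, Rpl3l made up 47.0% of the pair's TPM in replicate 1 and 52.1% in replicate 2. In estimated counts its share was 47.8% (exact 95% Clopper-Pearson interval 46.8 to 48.7%) and 53.4% (52.7 to 54.2%). The intervals do not overlap, but they cover counting error only and compare these 2 libraries. The log2 ratio between the libraries was 0.43 for Rpl3l and 0.11 for Rpl3, and after a correction for GC content it was 0.18 and 0.06. Rpl3l has 55.7% GC and Rpl3 52.0%, and the part of GC content in their difference was not tested.

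The Rpl3l estimate rests on sequence with no exact match of read length in another annotated gene. No 76-base window of its 1375-nt leading transcript recurs there. The posterior standard deviation of its count, the authors' measure of how reads could be divided between genes, was at 0 in both libraries. Rpl3 shared 83.2% of its windows, mostly with the pseudogene Rpl3-ps1, which had 234 counts in replicate 1 and 766 in replicate 2. With the estimates on all sequence copies added, Rpl3 had TPM 88.5 and 115, above Rpl3l in both libraries. This addition was chosen after the data were seen.

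Each gene of the pair was carried by 1 main transcript. Rpl3l-202 carried 92.9% and 97.8% of the gene's TPM in replicates 1 and 2 (mean 95.3% ± 3.43, SD, n = 2). The shorter coding transcript Rpl3l-201 held 6.05% and 1.84%. Rpl3-201 held 94.4% and 94.9%, and most of the rest lay on Rpl3-204, a transcript annotated as retaining an intron, with 3.92% and 3.02%.

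In the other families with a measured paralog, the gene known from most tissues usually had the higher TPM. Rpl22 had TPM 26.7 and 21.98 beside 4.37 and 4.35 for Rpl22l1, its paralog known from blood cell development, a log2 ratio of 2.45 ± 0.19 (SD, n = 2). Rpl7 had 172 and 154 beside 10.6 and 9.63 for Rpl7l1, a log2 ratio of 4.0 ± 0.02. These orders held in both libraries, and the ratios exceeded their spread.

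The testis paralogs were far below their partners. Rpl39 had TPM 26.4 and 30 against 0.08 and 0.25 for Rpl39l. Rpl10, which is X-linked and has an autosomal intronless partner in Rpl10l, had 262 and 316 against 0 and 0.11. Rpl36a and Rpl36al were close, with 52.6 against 32.4 in replicate 1 and 53.8 against 48.4 in replicate 2, a log2 ratio of 0.42 ± 0.39. Rps4x had 208 and 185, and Rps4l, annotated as a transcribed processed pseudogene and so no member, had 10.7 and 23.8. Rpl13a and Rpl13, which share a name but are not a family, had 470 against 154 and 562 against 326. In counts, not divided by length, the mean order of that last pair was the opposite, with a log2 ratio of -0.17.

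Rps27 and Rps27rt were listed at different levels in both libraries. Rps27 (chr3:90212522-90213651) had 39.6 counts and TPM 12.5 in replicate 1, and 186 counts and TPM 48.7 in replicate 2. Rps27rt (chr9:114982366-114982739) had 1675 counts and TPM 162 in replicate 1, and 1376 counts and TPM 121 in replicate 2. The retrotransposed copy was thus listed 13.0-fold above its parent in replicate 1 and 2.48-fold above it in replicate 2, although their coding sequences are identical. In the deposited tables Rps27 is 255 nt long, which leaves an effective length of 50.7 nt in replicate 1 and 58.3 nt in replicate 2, while its M21 transcript has 345 nt. Its posterior standard deviation, 8.78% of the count, was the largest of all members.

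Summed over Rps27 and Rps27rt, the level was 175 TPM in replicate 1 and 170 in replicate 2, a sum made after the values were seen. Rps27l, whose coding region shares no 76-base window with that of Rps27, had TPM 27.7 and 28.3. Of the windows of its whole transcript 11.6% occur in other annotated genes. Rps27l was above Rps27 alone in replicate 1 and below it in replicate 2, and below the sum in both.

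**Figure D2:**
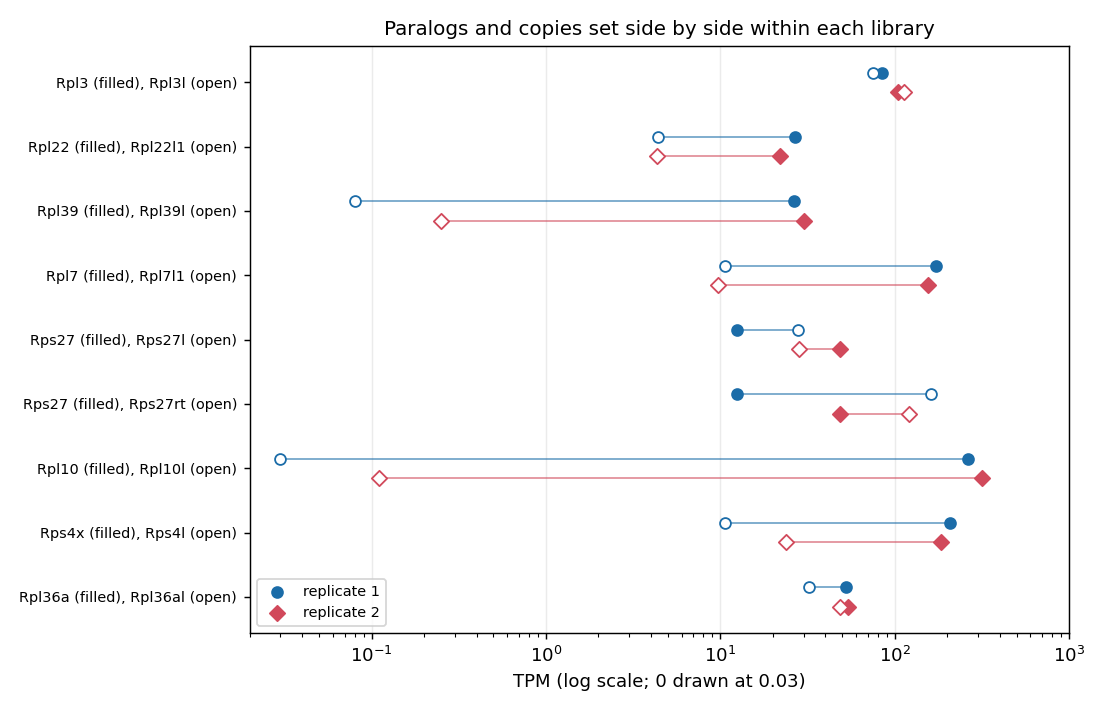
TPM (log axis) of each gene (filled) and its paralog or copy (open), in replicate 1 (circles, upper line of each pair) and replicate 2 (diamonds, lower line). Rpl3 and Rpl3l nearly coincide and change order, Rps27rt lies above Rps27 in both libraries, and Rpl10l and Rpl39l lie below 1 TPM.

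Reads assigned to pseudogene copies change the level of several members. Copies were taken as annotated genes outside the members that match a member's transcript at 90% identity or more over at least 80% of their own length, a search added after the data were seen. There were 860 such copies, belonging to 80 of the 86 members, and 100 of them had at least 20 counts over both libraries. They held 10.4% of the counts of members and copies in replicate 1 and 7.40% in replicate 2. The pseudogenes named -ps, the set chosen by symbol, held 4.88% and 4.11%.

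For 5 members the copies held more than the gene itself in both libraries: Rpl5, Rpl27, Rpl14, Rps13 and Rpl23a, named after their values were seen. Rpl5 stood apart, with 518 counts in replicate 1 and 474 in replicate 2 on the gene, and 6742 and 6091 on Gm15500 (chr7:114705217-114706235, minus strand), a transcribed processed pseudogene of identical sequence over the match. That is 92.9% and 92.8% of their joint counts on copies. Joined, Rpl5 had TPM 140 and 120, and its rank among the 86 rose from 82 to 52. Rpl27, with a copy of 100% identity in Rpl27-ps3, had TPM 18.9 and 23.2 alone and 141 and 190 with its copies.

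The spread of the group narrowed with the copies added. The ratio of the 75th to the 25th percentile of TPM was 3.28 in replicate 1 and 4.0 in replicate 2 for the genes alone, and 2.63 and 3.26 for genes with copies. The ranks of Rplp1, Rps2, Rps12 and Rplp0 as the 4 highest stayed as they were, and Rpl41 moved from 14 to 5.

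Some copies differed between the libraries far more than their parents. Gm8730, a copy of Rplp0 at 98.7% identity, had 3286 counts in replicate 1 and 363 in replicate 2, 10.8-fold lower in replicate 2 with scaled library sizes. Gm9625, another Rplp0 copy, had 1538 and 81.5 counts, and Gm14165 had 315 and 0. All 4 Rplp0 copies with at least 20 counts were lower in replicate 2, while the ratio of Rplp0 itself, replicate 2 over replicate 1, was 1.57. Within Rplp0 the share of the transcript Rplp0-204 was 28.3% in replicate 1 and 3.27% in replicate 2.

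Copies of other members moved in either direction. Gm6472, a copy of Rps7, had 966 and 64.6 counts, and Gm12191, a copy of Rpl30, had 81.3 and 600. Gm10020, a copy of Rpl15, had 4.56 and 520. By the exact binomial test described below, 12 of the 100 copies tested were higher and 16 lower in replicate 2, against 8.21% and 3.57% of all genes. The genes of this paragraph and the last were named after their values were seen, and the cause of the differences was not tested.

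**Figure D3:**
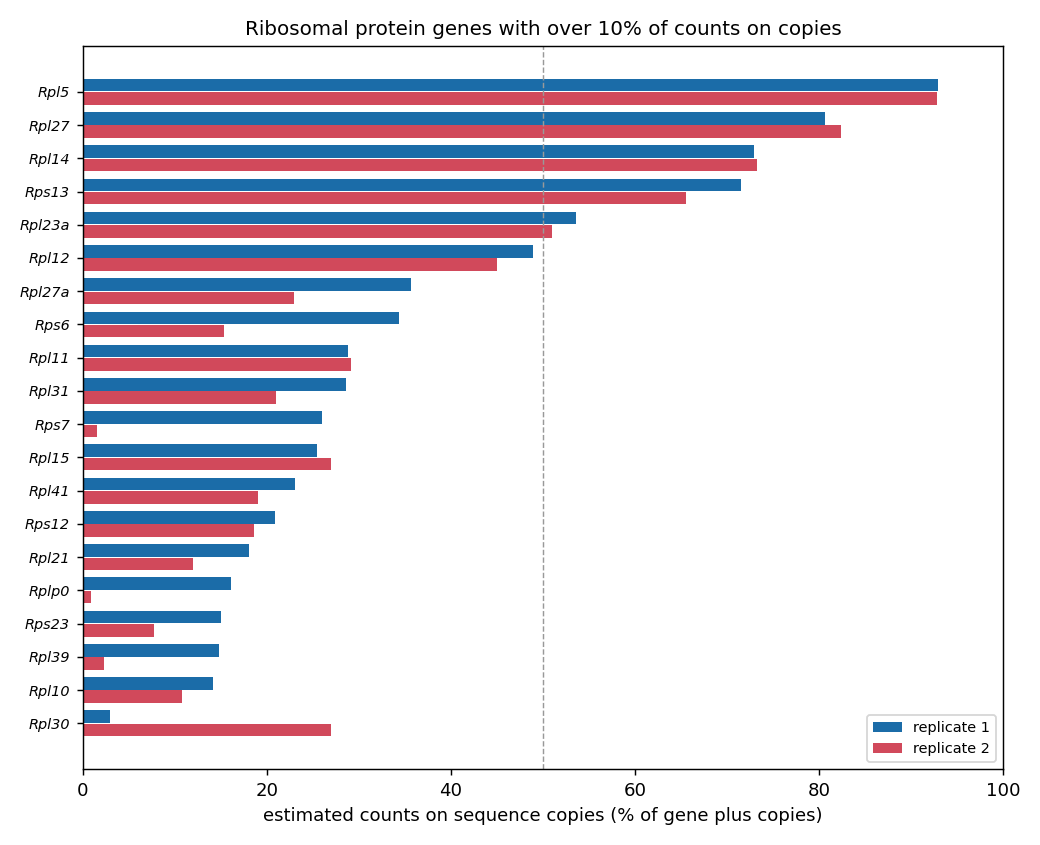
Percent of the estimated counts of a gene and its sequence copies that lie on the copies, for 20 members with over 10% in either library, with replicate 1 in blue and replicate 2 in red. Rpl5, Rpl27, Rpl14, Rps13 and Rpl23a lie past the dashed line at 50% in both libraries, and Rplp0, Rps7 and Rpl39 have copies mainly in replicate 1.

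The uncertainty that the authors' model gives for read sharing was small for members as a whole. Its standard deviation was over 25% of the count for 0 of 86 members and over 1% for 15, and it was 0 in both libraries for 12. This measure covers how reads are divided among the annotated transcripts, not whether the annotation is complete.

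Transcript shares were alike in the libraries for most members. Of 62 members with at least 2 annotated transcripts, 59 had the same leading transcript in both, and the median leading share was 91.6% in replicate 1 and 93.6% in replicate 2. Rps24, whose 3′ end is known for tissue-dependent alternative exons, had 99.9% and 99.7% of its TPM on Rps24-201. Only 2 Rps24 transcripts were quantified, so this share cannot show the use of forms outside those 2. The leading transcript differed for Rpl15, Rpl30 and Rpl5.

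Several members had much of their TPM on transcripts annotated as retaining an intron, over 10% in both libraries for 6. Rps2 had 39.2% and 48.0% on such transcripts. Rps20 was led by one, Rps20-201, at 72.4% and 53.4%. In counts the longer coding transcript Rps20-203 held more, 64.0% and 86.2%, so the leading transcript of Rps20 depends on dividing by length. Rps20 was named after its values were seen.

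**Figure D4:**
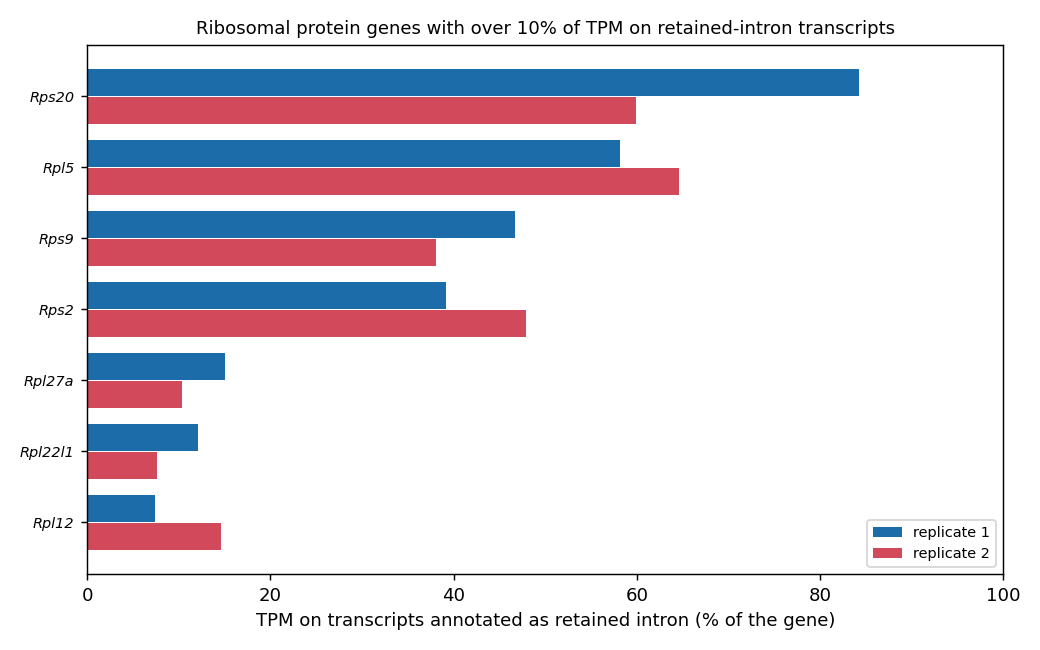
Percent of each gene's TPM on transcripts annotated as retained intron in GENCODE M21, for 7 members with over 10% in either library, with replicate 1 in blue and replicate 2 in red. Rps20 and Rpl5 lie above 50% in both libraries, and Rps9 and Rps2 lie between 38.1% and 48.0%. Shares are of the estimate on the gene alone. For Rpl5 this leaves out its copies, which held 92.9% of the joint counts in replicate 1 and 92.8% in replicate 2.

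Between the libraries, 5 members were higher in replicate 2 by at least 2-fold and none was lower by that much. The test was a two-sided exact binomial test on rounded counts with TMM-scaled library sizes and Benjamini-Hochberg adjustment over 16145 genes with at least 20 counts, called at an adjusted p under 0.05 and a fold of at least 2. Of 84 members tested 5.95% were called, against 11.8% of all genes tested. With only genes of at least 100 counts, the same 5 members were called, 5.95% against 6.98% of all genes, so the gap to the background depends on the count minimum. Since each side is 1 library, the test covers counting error only.

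Rplp1 had 16178 counts in replicate 1 and 44478 in replicate 2, 2.30-fold higher with scaled sizes (exact 95% interval 2.26 to 2.34). Rpl36, a small protein of the large subunit, had 3162 and 8961 counts, 2.37-fold higher (2.28 to 2.47). Rpl28, another large-subunit protein, had 1589 and 4390, 2.31-fold higher (2.18 to 2.45, exact binomial test, adjusted p = 5.15e-199). Rps28, a small-subunit protein, had 1288 and 3360, 2.18-fold higher (2.05 to 2.33, adjusted p = 2.41e-136 in the exact test). All 4 rest on at least 1288 counts in each library.

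Rps27 was the fifth, 3.89-fold higher (2.75 to 5.63, adjusted p = 9.8e-18 in the exact test) on 39.6 and 186 counts. Its identical copy Rps27rt was 1.45-fold lower in replicate 2, within the fold limit. Summed, the genes were 1.31-fold lower in replicate 2, so the direction of Rps27 alone did not hold for the sum.

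None of these calls was kept by a test that allows for spread between libraries. With the common dispersion that edgeR estimated from both libraries treated as 1 group (biological coefficient of variation 0.275), 0 members were called, against 2.84% of all genes. That dispersion includes the differences under test, so it is no separate measure of spread between hearts. Loss of the calls therefore does not show that they lie within such spread. At an unadjusted p under 0.05 edgeR had 5 members, and the smallest adjusted p was 0.0591, for Rps27. After a GC correction 4 members were called, against 9.14% of all genes: Rplp1, Rpl28 and Rpl36 were below a 2-fold difference, and Rps12 and Rps13 were past it. After a correction for effective length 4 members were higher and 1 lower in replicate 2, against 11.3% of all genes called: Rps28 was below the fold limit (log2 ratio 0.95), and Rpl30 was called lower (-1.15, named after its values were seen).

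Most members shifted the same way by less than 2-fold. The log2 ratio of replicate 2 over replicate 1, on CPM with 0.5 added, was above 0 for 63 of 84 members with a mean CPM of at least 1 (75%), against 46.7% of 13012 genes. The median was 0.30 for members, a 1.23-fold higher level in replicate 2, and -0.04 for all genes. Without a fold limit 56 members were higher and 17 lower in the exact binomial test, against 32.9% and 34.9% of all genes (67.8% in either direction). Rpl30, named after its value was seen, was the lowest in replicate 2 by this ratio, with 2709 counts in replicate 1 and 1631 in replicate 2. With copies added its log2 ratio went from -0.97 to -0.57, and it was no longer the lowest.

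The shift went with base composition. Across the 84 members the log2 ratio and GC content had a Spearman rho of 0.707, and across all genes 0.675, a description over genes of the same 2 libraries. The members' median GC was 51.7%, and that of all tested genes 50.4%. After GC correction the member median was 0.21 and 66 of 84 members were above 0, and after a correction for effective length it was 0.14 with 48 above 0. The part of GC content, length or fragment size in the shift was not tested.

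**Figure D5:**
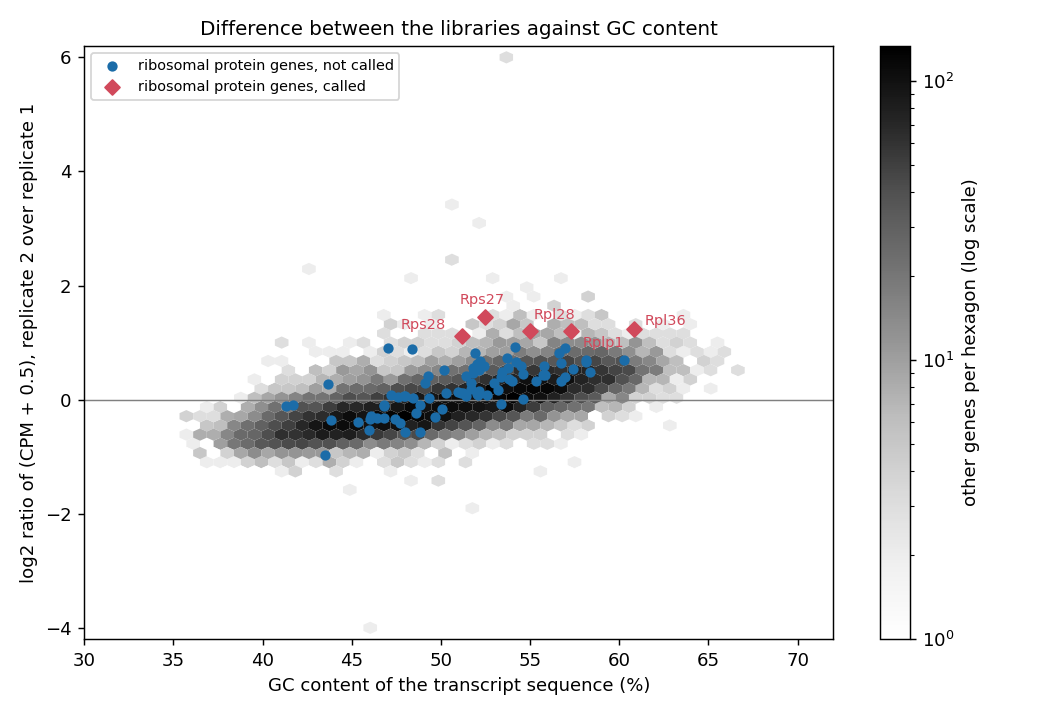
Log2 ratio of CPM + 0.5 in replicate 2 over replicate 1 against transcript GC content, with other genes of mean CPM at least 1 as grey hexagons (count on a log scale, ratios beyond -4 and 6 drawn at those values), members as blue points and called members as red diamonds. Members follow the rise of the grey cloud with GC content. The 5 called members lie highest among the members, and some other genes lie higher still.

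Markers of other tissues and cells differed between the same libraries. The cardiomyocyte markers (Myh6, Tnnt2, Actc1, Tnni3, Ryr2 and Pln) took 2.46% and 2.90% of TPM, and 0 of 6 were called by the exact binomial test with the fold limit. Of these Tnni3 went from TPM 4631 to 11030, while 4 of the 6 had a log2 ratio below 0 and the median was -0.25. Of the 6 erythroid markers all were higher in replicate 2, and their summed share was 0.759% and 9.49% of TPM. All 7 airway and lung markers (0.88 TPM in replicate 1 and 2535 in replicate 2, 3 of them at 0 counts in a library), 3 of 3 adipocyte and 4 of 6 immune markers were also higher there. None of 4 fibroblast and 3 endothelial markers was called. The skeletal muscle markers, which could share Rpl3l, summed to 0.31 TPM in replicate 1 and 1.26 in replicate 2, and 1 of 2 tested was called higher there (Tnnt3, with 1 and 34 counts). The part of these cells in the ribosomal protein levels was not tested.

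Genes that work with ribosomal proteins were read from 3 lists. The first holds mRNAs that start with a TOP tract or encode ribosome-bound proteins outside the symbol rule. Its 3 highest were Eef1a1, the elongation factor that brings tRNA to the ribosome, with TPM 477 and 476, Rack1, a small-subunit scaffold, with 447 and 472, and Tpt1, a TOP mRNA, with 350 and 525. Of 16 tested, 3 were higher in replicate 2, 0 lower and 13 not called, against 11.8% of all genes called. The list's median log2 ratio was -0.01, against -0.04 for all genes.

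The called genes included Fau and Pabpc1. Fau, which encodes Rps30 fused to a ubiquitin-like protein, had 67.2 and 169 and was 2.27-fold higher, but after GC correction its log2 ratio was 0.77 and it was not called. Pabpc1, the poly(A)-binding protein, had 30.5 and 57.6 and was 2.16-fold higher, and it was the gene of this list still called after GC correction. The exact binomial test gave both an adjusted p under its threshold. With the common dispersion edgeR called 0 genes of the list, against 2.84% of all genes, with 1 at an unadjusted p under 0.05.

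Ribosome assembly factors were low beside the proteins they handle. The 35 measured (Riok2 of the list was not matched) summed to 265 TPM in replicate 1 and 296 in replicate 2, and the leading ones were Npm1, a nucleolar chaperone, with TPM 35.3 and 30.5, Eif6, which keeps large subunits from joining, with 17.7 and 20.97, and Nop56, a guide RNA core protein, with 16.7 and 14.5. By the exact binomial test with the fold limit 0 of 35 were called, against 11.8% of all genes. Without that limit 24 were at an unadjusted p under 0.05. After adjustment 22 were called without it, against 67.8% of all genes. Their median log2 ratio was -0.13, against -0.04 for all genes and 0.30 for the members. Of the 35, 10 had a log2 ratio above 0, with 15 after GC correction and 17 with total counts.

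The regulators of ribosomal protein mRNAs were led by mean TPM by Eif4ebp1, the mTOR-controlled repressor of cap-dependent translation, with 42.8 in replicate 1 and 89.7 in replicate 2. Akt1, a growth kinase, had 51.7 and 79.1, above Eif4ebp1 in replicate 1 and below it in replicate 2, and Eif4ebp2, a relative of Eif4ebp1, had 29.6 and 33.0. Larp1, which binds TOP mRNAs directly, had 12.5 and 14.1 (named after its values were seen). Of 16, 0 were called by the exact binomial test with the fold limit, against 11.8% of all genes. Without the limit 13 were at an unadjusted p under 0.05. After adjustment 13 were called without it, against 67.8% of all genes. The median log2 ratio was -0.02.

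The starts of the members' genes were compared with the TOP tract, since the rule used no sequence. RefSeq promoter windows on GRCm38.p6 were held for 66 of 86 members, 65 of them ribosomal protein genes. The tract was scored on the transcribed strand only, as C at the annotated start followed by at least 4 letters that are C or T. It was present at the start of 14 of 65 ribosomal protein genes (21.5%), against 3.01% of 27025 genes. Within 15 bases either side it was present for 72.3%, against 44.9% of all genes.

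The windows below span 15 bases before the start and 15 from it, so the start is letter 16, and capitals mark every run of C followed by at least 4 of C or T. They are shown because Rpl28, Rplp2, Rps27 and Rps27rt hold the tract at the start and Rps2 and Rpl3l have none there.
Rpl28, chr7:4792950-4792979, plus strand: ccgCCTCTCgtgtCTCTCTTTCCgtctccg
Rplp2, chr7:141447636-141447665, plus strand: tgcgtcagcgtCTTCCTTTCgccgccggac
Rps27, chr3:90213634-90213663, minus strand: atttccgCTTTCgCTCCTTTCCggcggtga
Rps27rt, chr9:114982725-114982754, minus strand: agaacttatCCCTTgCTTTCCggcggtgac
Rps2, chr17:24720048-24720077, plus strand: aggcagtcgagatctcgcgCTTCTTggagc
Rpl3l, chr17:24727811-24727840, plus strand: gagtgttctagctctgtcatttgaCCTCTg
Rps27 and its copy Rps27rt end in nearly the same letters, and the sequence before the start differs. The match is a description of these windows and depends on where the annotation places the start. Windows of 20 members, among them Rpl3, Rplp1 and Rpl36, were not used here.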

How the data were processed

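Poly(A) RNA of mouse heart was measured in 2 libraries (57464573 and 62912053 estimated counts). The deposited expected counts, TPM and FPKM are on mm10 with GENCODE M4, per the notes deposited with them; aligner and counter: not given in the sources used here. Transcript tables also hold each transcript's percent of its gene, per the file headers; shares were recomputed from TPM. The other deposited columns used were lengths and the posterior standard deviation of counts, per the file headers. Symbols, coordinates, biotypes and GC content came from GENCODE M21 by identifier (98.0% matched). Contigs and junctions on mm9 were not used.

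Counts were rounded for tests. Library sizes were TMM-scaled with edgeR 4.0.16 in R 4.3.3, with factors 0.957 and 1.04, and DESeq2 1.42.0 size factors, total counts, other filters, GC and length corrections were alternatives. The binomial test took genes whose counts summed to 20 or more. Copies were found with BLAST 2.17.0 and Python 3.11.15. The binomial test was tried on simulated counts with counting noise only, which is the noise it assumes. It called 97% of 100 genes changed 3-fold, 100% of 100 changed 4-fold and 0% of 15972 unchanged genes. Spread between libraries was not simulated. Posterior mean counts replaced the counts in 1 alternative. Intervals are exact at 95% and cover counting error only. With n = 2 an exact sign test cannot go below p = 0.5.

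The members and lists were chosen with earlier results of these data known. Named genes are the paralog pairs, Rplp0, Rplp1, Rplp2 and Rpsa, the 5 highest and 5 lowest members, called members, those at 0 counts or with a posterior standard deviation over 25%, and the 3 highest and called genes of each list. Proteins were not compared, and nothing separates the samples by culture or animal beyond their records, so p-values measure only the spread of counting. Values of some single genes are left out of the text and figures.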

Additional observations from a re-analysis of the deposited data

How the results depend on the processing

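No paired analysis was possible because there is 1 group of 2 libraries. Of 85 alternative values of main results, 69 stayed within the SD of the main value or within 1.5 times it. Some of these, for Rpl3 over Rpl3l, had the opposite sign to the main value. Leaving out a replicate cannot move a mean of 2 libraries beyond its SD, so for such means those values are no check. The share of TPM was 0.872% as a share of counts and 2.70% with TPM rescaled without the genes of the mitochondrial genome, and leaving out each replicate it ran from 1.34% to 2.01%. Of 84 members tested, 9 were called with total counts, 73 without a fold limit and 0 with edgeR's common dispersion. Of all genes 12.5%, 67.8% and 2.84% were called under these settings. Under the other settings 4 to 5 members were called, against 6.98% to 11.8% of all genes. Members called under those other settings were higher in replicate 2 except Rpl30, which was lower after length correction. Of 16 TOP-list genes 12 were called without a fold limit, 1 after GC correction and 0 with the common dispersion. Of all genes 67.8%, 9.14% and 2.84% were called under these settings. Without a fold limit 22 of 35 assembly genes and 13 of 16 regulators were called, against 67.8% of all genes. With total counts 1 regulator, Eif4ebp1, was called, against 12.5% of all genes. The median member log2 ratio was 0.14 after length correction and 0.42 with total counts, where all genes had a median of 0.08. As shares of counts the leading transcripts of Rpl3 and Rps24 held 93.4% and 99.5%. Pseudogenes named -ps held 6.02% in TPM, and copies by sequence 8.89% of counts on average (added after seeing the data). The log2 ratio of Rpl13a over Rpl13 was -0.17 in counts. Leaving out a replicate, Rpl3 over Rpl3l ran from -0.12 to 0.17. Where a value moved, the cause was not tested. With 1 library a side, spread between hearts limits every call, and members under 200 nt of effective length (8 of 86) have the least certain TPM.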
